A study of Mus musculus with 2 samples.

Results

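The 9 genes described here encode the signalling equipment of the spiny projection neurons of the mouse striatum: the dopamine receptors Drd1, Drd2 and Drd3, the neuropeptide precursors Tac1, Penk and Pdyn, and the intracellular signalling proteins Ppp1r1b, Rgs9 and Pde10a. They were taken by symbol, and 9 of 9 were among the 32285 genes counted in each library. They were counted by single-nucleus RNA sequencing of the subventricular zone (SVZ), the neurogenic wall of the lateral ventricle, whose dissection borders on the striatum. On postnatal day 5 mice became controls or were given modeled intestinal perforation (MIP). The SVZ was taken 48 h later, on postnatal day 7, frozen in liquid nitrogen and processed to nuclei. There was 1 Control library and 1 MIP library. The labels name no strain, genotype or treatment of the controls, and do not say how many mice were pooled.

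Spiny projection neurons fall into a pair of main kinds. Neurons of the direct pathway carry the D1 receptor, which couples to the stimulatory G protein of this tissue and raises cAMP, and they make substance P (from Tac1) and dynorphin (from Pdyn). Neurons of the indirect pathway carry the D2 receptor, which lowers cAMP, and they make enkephalin (from Penk). Both kinds hold DARPP-32 (from Ppp1r1b), a phosphatase inhibitor switched by cAMP-dependent phosphorylation, RGS9, which speeds the shut-off of G proteins, and PDE10A, which breaks down cyclic nucleotides.

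Striatal neurons were nuclei in which at least 3 of the 6 genes Rarb, Ano3, Gng7, Adcy5, Bcl11b and Myo3b were detected. A nucleus was placed on the Drd1 side when its Ebf1 and Isl1 UMIs (unique molecular identifiers, each standing for 1 captured RNA molecule) outnumbered its Adora2a and Gpr6 UMIs, on the Drd2 side in the opposite case, and was left unsplit on a tie. No member gene took part in the gate or the split. The gate kept 5242 of 14548 nuclei (36.0%) in Control and 4156 of 10891 (38.2%) in MIP. Of these, 2259 and 1728 were Drd1-side, 1135 and 776 Drd2-side, and 1848 and 1652 unsplit. Drd1-side nuclei made up 66.6% of the split nuclei in Control and 69.0% in MIP, a log2 ratio of shares of 0.05, given without an interval. A list of other known projection neuron genes that neither gate nor split used (Foxp1, Meis2, Gpr149, Rxrg, Ptpn5) had 5 of 5 detected on both sides. Detection in sums of this size does not set the nuclei apart, since markers of other classes were detected there too. The summed level of the list was 3657 and 3590.2 CPM (UMIs per 1000000 UMIs of the class) in Drd1-side nuclei of Control and MIP. It was 4524 and 4597 in Drd2-side nuclei, and 2014 and 2095 in unsplit nuclei. The list was not summed in classes outside the gate. The gate has a soft edge. Nuclei with 2 gate genes, just outside it, numbered 2493 and 1762 and had a Pde10a level of 301.7 and 393 CPM. Nuclei with 3, just inside, numbered 1441 and 1225 and had 390 and 598. In nuclei with all 6 gate genes Pde10a stood at 2417 and 2548.

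Several facts about the libraries bear on all that follows. Each group is 1 library, so no difference between Control and MIP has a replicate check, no p-value can be given, and the intervals below cover counting error only. Female-expressed RNAs (Xist, Tsix) summed to 2061 CPM in Control and 7.77 in MIP, and 4 Y-linked genes to 0.315 and 473. MIP and sex therefore cannot be told apart. Drd1-side nuclei held a median of 12053 UMIs in Control and 9099 in MIP, and Drd2-side nuclei 11041 and 8773. Within the striatal gate, 1656 Control and 768 MIP nuclei also had at least 3 detected markers of another class. The libraries shared 115 barcodes, among them 46 Control and 27 MIP striatal nuclei. Without these barcodes the number of members at least 1.5-fold lower or higher was the same on both sides.

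Stretches of genome just before the genes are shown for the receptor genes that mark the sides and for Tac1, the 1 member with a window that held the core motif of the cAMP response element, where the factor CREB is known to bind. The sequences are RefSeq's, on build GRCm38.p6 (the same coordinates as mm10), 5′ to 3′ on the strand of the gene. Each ends before the first start that RefSeq or GENCODE gives, and capitals mark that core motif.
Drd1, chr13:54055706-54055908, minus strand: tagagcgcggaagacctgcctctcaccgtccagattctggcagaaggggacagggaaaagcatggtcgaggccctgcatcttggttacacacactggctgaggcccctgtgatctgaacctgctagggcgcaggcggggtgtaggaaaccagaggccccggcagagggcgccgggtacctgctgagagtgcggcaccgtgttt
Drd2, chr9:49340153-49340402, plus strand: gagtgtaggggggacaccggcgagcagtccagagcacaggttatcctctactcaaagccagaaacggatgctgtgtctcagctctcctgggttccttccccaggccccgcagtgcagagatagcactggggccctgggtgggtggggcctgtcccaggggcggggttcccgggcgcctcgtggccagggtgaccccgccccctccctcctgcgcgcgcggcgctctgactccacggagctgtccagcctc
Tac1, chr6:7554811-7554878, plus strand: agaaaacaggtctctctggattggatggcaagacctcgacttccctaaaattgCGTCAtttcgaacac
The table of promoter windows, each of 300 bases with 250 before and 50 after a RefSeq start, matched 7 of the 9 members with 10 windows, and Penk and Ppp1r1b were not matched. The full cAMP response element TGACGTCA was in 0 of the 10 windows and in 1.79% of all 32851 windows. The core motif TGACG, searched on both strands as TGACG or CGTCA and contained in the full element, was in 20.8% of all windows and, among the members, only in that of Tac1, at -197 and -43 from the RefSeq start. GENCODE starts Tac1 182 bases before RefSeq does, so the match at -43 lies inside the GENCODE gene. TATAAA, searched on both strands, was in 13.6% of all windows and among members only in that of Rgs9, at -195. These matches describe letters in a window and say nothing of binding.

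Drd1 (chr13:54051183-54055705 on mm10, minus strand) encodes the D1 receptor. It was counted at 91.0 CPM in Drd1-side nuclei of Control and 86.4 in MIP, against 12.8 and 7.52 in Drd2-side nuclei. The Drd1 side was 7.13-fold higher than the Drd2 side in Control and 11.5-fold in MIP. Unsplit striatal nuclei lay between, at 23.7 and 20.7. Outside the striatal gate, cortical excitatory neuron-like nuclei had 23.2 CPM in Control and 17.5 in MIP, with a Drd1 UMI in 26.3% and 18.3% of nuclei. In cholinergic neuron-like nuclei 0 Drd1 UMIs were counted in either library, which allows up to 7.35 CPM in Control and 8.21 in MIP.

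Drd2 (chr9:49340627-49408177, plus strand) encodes the D2 receptor. Its level was 266.8 CPM in Drd2-side nuclei of Control and 295.7 in MIP, and 33.4 and 19.0 in Drd1-side nuclei. That is a contrast of 7.99-fold in Control and 15.6-fold in MIP. The class with the next highest level was the cholinergic neuron-like nuclei, with 85.6 and 111 CPM from only 32 nuclei in each library, of which 31.2% and 46.9% had a Drd2 UMI. Cholinergic interneurons are known to carry D2 receptors. Lhx6 interneuron-like, oligodendrocyte precursor-like and astroglia-like nuclei had 15.2, 10.7 and 7.49 CPM in Control and 9.41, 8.58 and 2.95 in MIP.

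Drd2 in Drd1-side nuclei was uneven. It came from 14.0% of nuclei in Control and 7.47% in MIP, and the 5% of Drd1-side nuclei richest in Drd2 held 72.1% and 88.3% of its UMIs. For Drd1 in the same nuclei the richest 5% held 22.5% and 23.4%. After every nucleus was thinned to 5000 UMIs, 8.33% of Drd1-side nuclei had a Drd2 UMI in Control and 4.52% in MIP. Drd1 and Drd2 were then detected together in 1.73% and 1.18% of Drd1-side nuclei. Among Drd1-side nuclei with a Drd2 UMI, 33.1% also had a Penk UMI in Control and 37.7% in MIP, against 15.98% and 12.9% of those without one. Thus the Drd2-positive nuclei on the Drd1 side were also those with more Penk, the peptide gene of the other side.

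Drd3 (chr16:43754026-43822932, plus strand) encodes the D3 receptor, a D2-like receptor known from the ventral striatum. It was counted at 19.6 CPM in Drd1-side nuclei of Control and 17.1 in MIP, and at 7.97 and 10.7 in Drd2-side nuclei, so the Drd1 side was 2.46-fold and 1.61-fold higher. It was concentrated in a few nuclei. The 121 striatal nuclei of Control and 65 of MIP with at least 3 Drd3 UMIs held 56.7% and 49.2% of all striatal Drd3 UMIs, and 87 and 46 of them were Drd1-side. In Control these nuclei had 1.35-fold more Rgs9 (in CPM) than striatal nuclei without Drd3 (log2 0.44, interval 0.31 to 0.56) and 1.31-fold more Penk (log2 0.39, 0.19 to 0.58). In MIP the Rgs9 value was 1.17-fold (log2 0.23, 0.00 to 0.46) and the Penk value 1.03-fold (log2 0.05, -0.30 to 0.38). Drd1 was 1.34-fold higher in Control (log2 0.42, 0.15 to 0.68) and 1.18-fold in MIP (0.24, -0.22 to 0.67). Pde10a was at 1.15-fold in Control (0.20, 0.15 to 0.25) and 0.95-fold in MIP (-0.07, -0.15 to 0.01). Pdyn was at 0.89-fold in Control (-0.17, -0.89 to 0.47) and 1.93-fold in MIP (0.95, 0.10 to 1.69), there from 15 UMIs. The intervals of Drd2, Tac1 and Ppp1r1b spanned equality in both libraries. The mix of sides differed: 19 of the 121 nuclei of Control and 11 of the 65 of MIP were unsplit. Of all striatal nuclei 1848 of 5242 and 1652 of 4156 were unsplit, with Rgs9 at only 101 and 87.3 CPM. The part of this mix in the ratios was not tested.

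**Figure D1:**
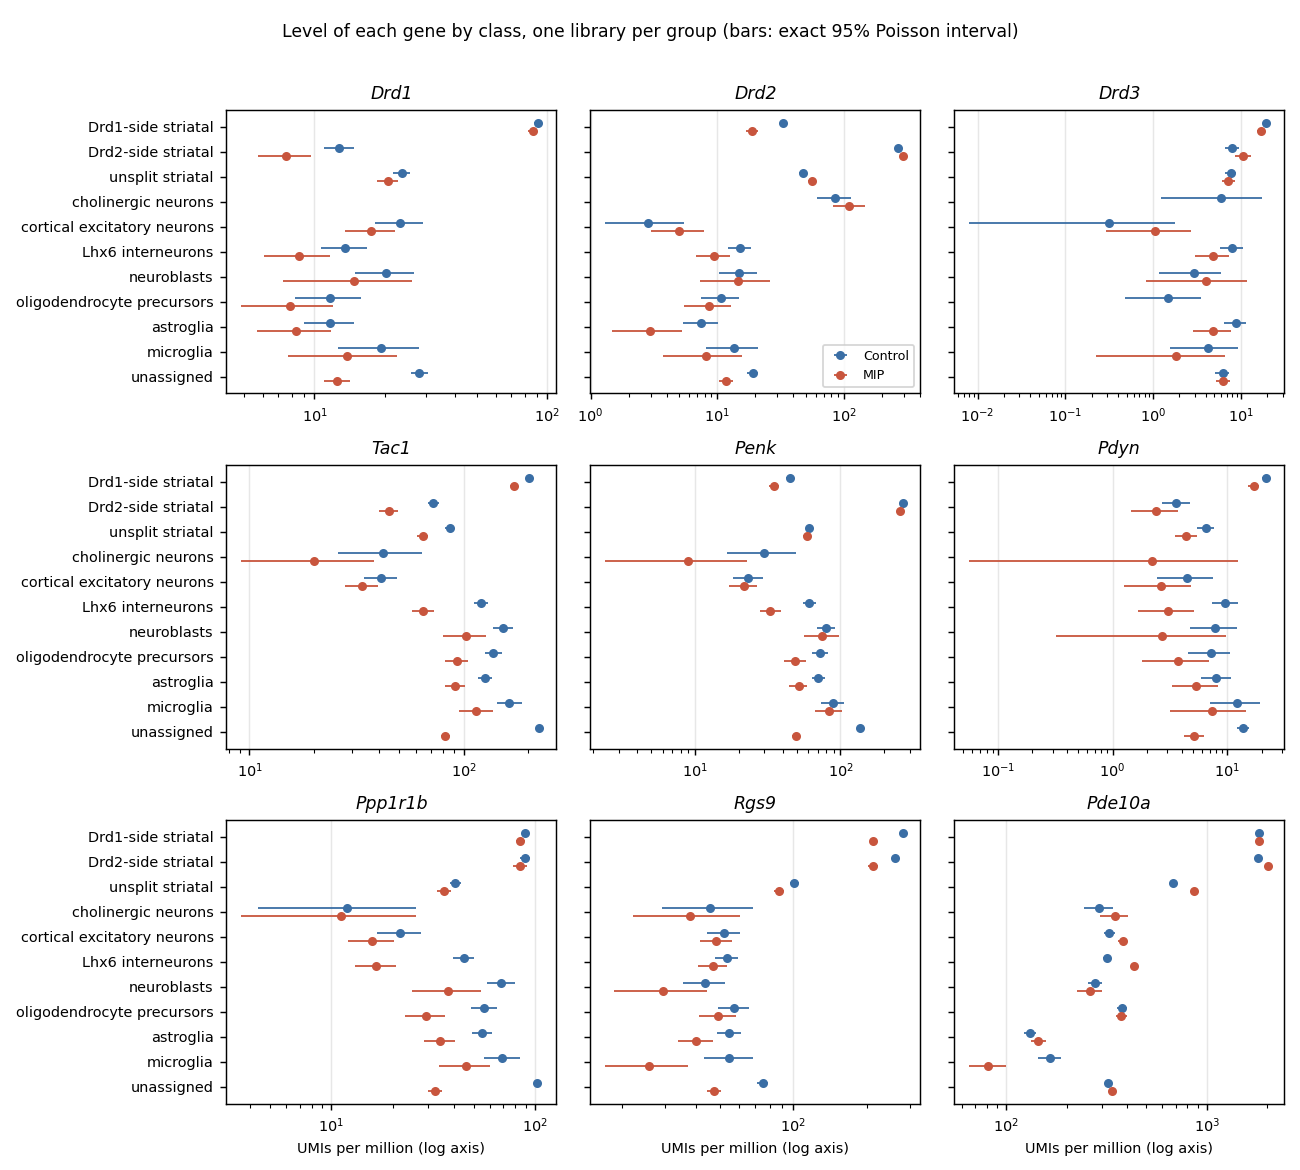
Level of each of the 9 genes (CPM, log axis) in 11 classes of nuclei, Control in blue and MIP in red, bars showing the exact 95% Poisson interval and values of 0 not drawn. Drd1 and Pdyn are highest in Drd1-side nuclei and Drd2 and Penk in Drd2-side nuclei, while Ppp1r1b, Rgs9 and Pde10a stand at like heights on both sides.

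Tac1 (chr6:7554879-7565834, plus strand) encodes the precursor of substance P and neurokinin A. Its level was 201.4 CPM in Drd1-side nuclei of Control and 170.7 in MIP, and 71.9 and 44.6 in Drd2-side nuclei, a contrast of 2.80-fold and 3.83-fold. Pdyn (chr2:129686565-129699844, minus strand), the prodynorphin gene, was counted at 21.6 and 17.1 CPM on the Drd1 side and 3.60 and 2.38 on the Drd2 side, a contrast of 6.001-fold and 7.18-fold. Penk (chr4:4133531-4138819, minus strand), the proenkephalin gene, ran the other way. It had 270.7 and 256.6 CPM in Drd2-side nuclei and 44.8 and 34.8 in Drd1-side nuclei, so the Drd2 side was 6.04-fold higher in Control and 7.37-fold in MIP.

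Part of the peptide signal outside each gene's own side was at a level that nuclei of other classes also held, called free RNA here. In 6 classes outside the striatal gate that ranged from microglia-like nuclei to Lhx6 interneuron-like nuclei and unassigned nuclei, Tac1 was found at 0.714 to 0.937 UMIs per nucleus in Control and 0.368 to 0.559 in MIP. The ratio of Penk to Tac1 UMIs in those classes was 0.508 to 0.614 in Control and 0.512 to 0.737 in MIP. In the other classes outside the gate it ran from 0.421 (vascular) to 1.07 (ependymal) in Control. In MIP it ran there from 0.400 (ependymal) to 0.880 (leptomeningeal). On the Drd1 side it was 0.222 and 0.204, and on the Drd2 side 3.76 and 5.75. A nucleus of these 6 classes thus held a small amount of both peptide RNAs, in a ratio unlike that of either side. In shallow nuclei that amount gives a high level: unassigned nuclei of Control, with a median of 1288 UMIs, stood at 223 CPM for Tac1, above the Drd1-side nuclei, while holding 0.779 Tac1 UMIs per nucleus.

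The amount of free RNA was not measured directly. It was taken as the mean over astroglia-like, microglia-like and oligodendrocyte precursor-like nuclei (1949 in Control, 1798 in MIP). It was 0.725 Tac1 UMIs per nucleus in Control and 0.397 in MIP, lower in MIP. Of the Tac1 in a Drd2-side nucleus it equalled 79.3% in Control and 86.4% in MIP, and of the Pdyn there 97.4% and 86.3%. Whether Pdyn was made in nuclei of the Drd2 side was not tested. Of the Penk in a Drd1-side nucleus it equalled 61.2% and 60.3%. In the cells where each gene belongs the share was lower: 24.9% and 21.2% for Tac1 on the Drd1 side, 11.5% and 8.72% for Penk on the Drd2 side, and 1.48% and 0.786% for Drd2 on the Drd2 side. For Ppp1r1b it was 23.8% and 15.3% on the Drd1 side and 27.1% and 16.4% on the Drd2 side.

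**Figure D2:**
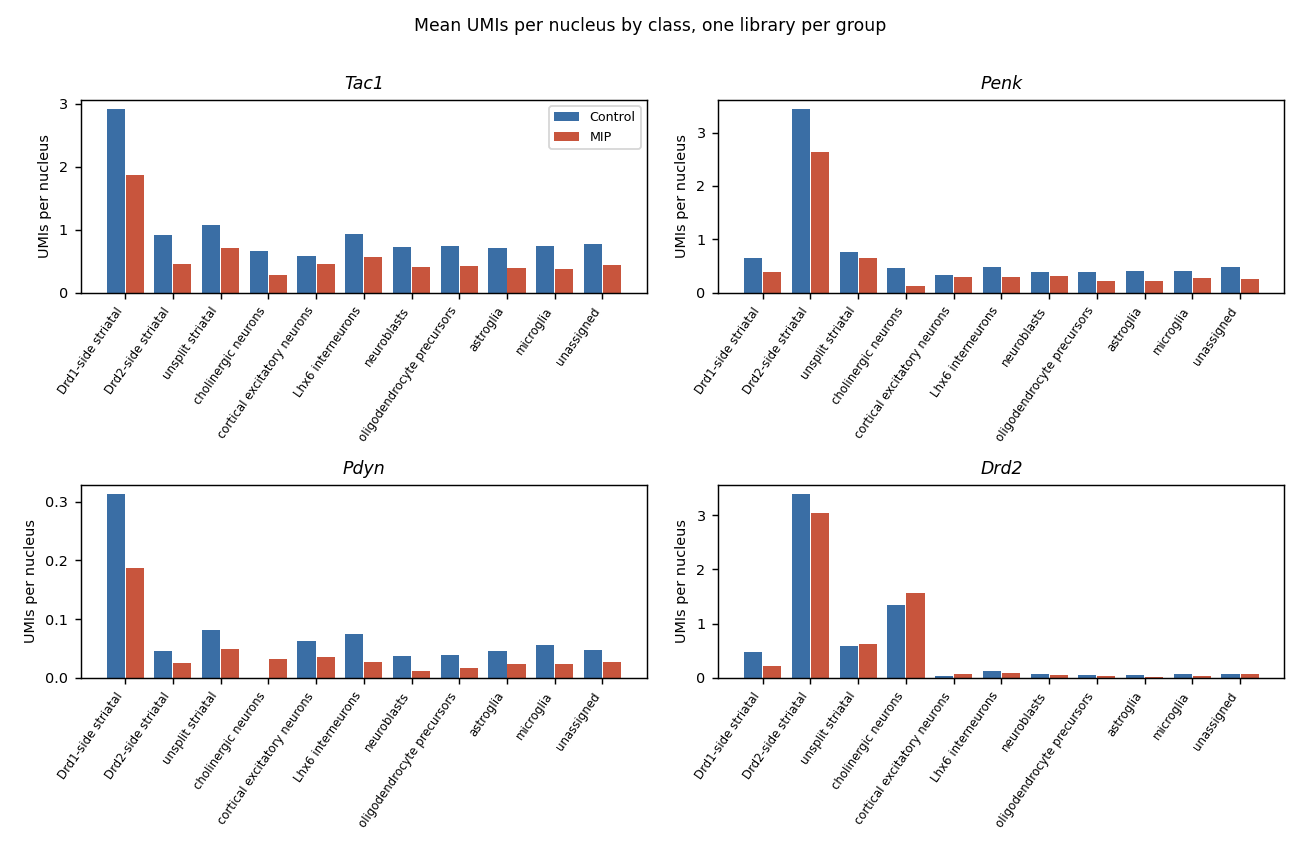
Mean UMIs per nucleus of Tac1, Penk, Pdyn and Drd2 in 11 classes, Control in blue and MIP in red, 1 library each. Outside the striatal classes Tac1 and Penk stand at a similar low height in class after class, and lower in MIP, whereas Drd2 is near 0 in those classes except in the cholinergic neuron-like nuclei.

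The cAMP and G protein genes did not follow the split. Ppp1r1b (chr11:98348404-98357796, plus strand) was counted at 89.7 CPM in Drd1-side nuclei of Control and 84.7 in MIP, and at 89.6 and 84.3 in Drd2-side nuclei. Rgs9 (chr11:109225355-109298129, minus strand) stood at 281.7 and 212.4 on the Drd1 side and 261.8 and 212.5 on the Drd2 side. Pde10a (chr17:8525372-8986648, plus strand) stood at 1812 and 1815 on the Drd1 side and 1798 and 2021 on the Drd2 side. The log2 ratio of the Drd1 side over the Drd2 side was 0.00 (95% interval -0.09 to 0.10) in Control and 0.01 (-0.12 to 0.14) in MIP for Ppp1r1b, and 0.11 (0.05 to 0.16) and 0.00 (-0.08 to 0.08) for Rgs9. For Pde10a it was 0.01 (-0.01 to 0.03) in Control, and in MIP the Drd2 side was 1.11-fold higher. These 3 genes thus stood at like levels on both sides. Pde10a was also counted at 379 and 375 CPM in oligodendrocyte precursor-like nuclei and at 319 and 435 in Lhx6 interneuron-like nuclei, against 131 and 144 in astroglia-like nuclei. Ppp1r1b had 103 CPM in the shallow unassigned nuclei of Control and 32.3 in those of MIP. Those of Control held 0.360 Ppp1r1b UMIs per nucleus, against 1.30 in Drd1-side nuclei.

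The striatum is also divided into patches (striosomes), tied to limbic input, and the surrounding matrix. A nucleus was called patch-side when at least 2 of Oprm1, Sema5b, Kremen1 and Lypd1 were detected and more of them than of Epha4, Id4, Sv2b and Gda, and matrix-side in the opposite case. This gave 382 patch-side and 1217 matrix-side nuclei on the Drd1 side of Control and 317 and 740 in MIP. The direct pathway peptides were higher in patch-side nuclei. Tac1 had 327 CPM in patch-side and 179.6 in matrix-side Drd1-side nuclei of Control (1.82-fold), and 239 and 151 in MIP (1.59-fold). Pdyn had 37.7 and 18.4 in Control (2.05-fold) and 23.0 and 14.6 in MIP (1.58-fold). Drd1 itself was 1.15-fold and 1.01-fold higher on the patch side. Penk showed the opposite order within Drd2-side nuclei. It stood at 306.7 CPM in the 642 matrix-side and 161.5 in the 157 patch-side nuclei of Control, 1.90-fold higher in matrix, and at 281 and 205 in the 338 and 123 nuclei of MIP, 1.37-fold. Drd2 was 1.32-fold and 1.17-fold higher on the patch side of the same nuclei. Ppp1r1b and Rgs9 differed between patch and matrix by at most 1.16-fold on either side in either library.

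A further group of nuclei had at least 2 of Tshz1, Otof, Casz1 and Cacng5, genes known from a minor kind of projection neuron that departs from the classical pair. It held 316 Drd1-side nuclei in Control and 177 in MIP, and 136 and 92 Drd2-side nuclei. The generic signalling genes were lower there. On the Drd1 side Ppp1r1b was 1.503-fold lower than in the other nuclei in Control and 1.45-fold in MIP, Rgs9 1.32-fold and 1.30-fold, and Pde10a 1.23-fold and 1.27-fold. The genes of each side were lower too. On the Drd1 side Drd1 was 1.34-fold and 1.45-fold lower, Tac1 1.20-fold and 1.22-fold, and Pdyn 1.07-fold and 1.92-fold. On the Drd2 side Penk was 1.58-fold and 2.04-fold lower and Drd2 1.22-fold and 1.24-fold. Drd3 and some genes of the opposite side were higher in the Tshz1 nuclei. Drd3 was 1.52-fold and 1.45-fold higher on the Drd1 side and 5.12-fold and 1.88-fold higher on the Drd2 side, there from 61 and 24 UMIs. Drd1 on the Drd2 side was 2.54-fold higher in Control (log2 1.34, 0.89 to 1.79) and 1.74-fold in MIP (0.80, -0.13 to 1.65). Tac1 there was 1.35-fold higher in Control (0.43, 0.22 to 0.64) and 1.11-fold in MIP (0.15, -0.26 to 0.53). Drd2 on the Drd1 side was 1.11-fold higher in Control (0.15, -0.07 to 0.35) and 1.55-fold in MIP (0.64, 0.27 to 0.99). The Tshz1 nuclei were deeper, with a median of 17138 UMIs on the Drd1 side of Control against 11502 in the others, and the part of depth in these differences was not tested.

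**Figure D3:**
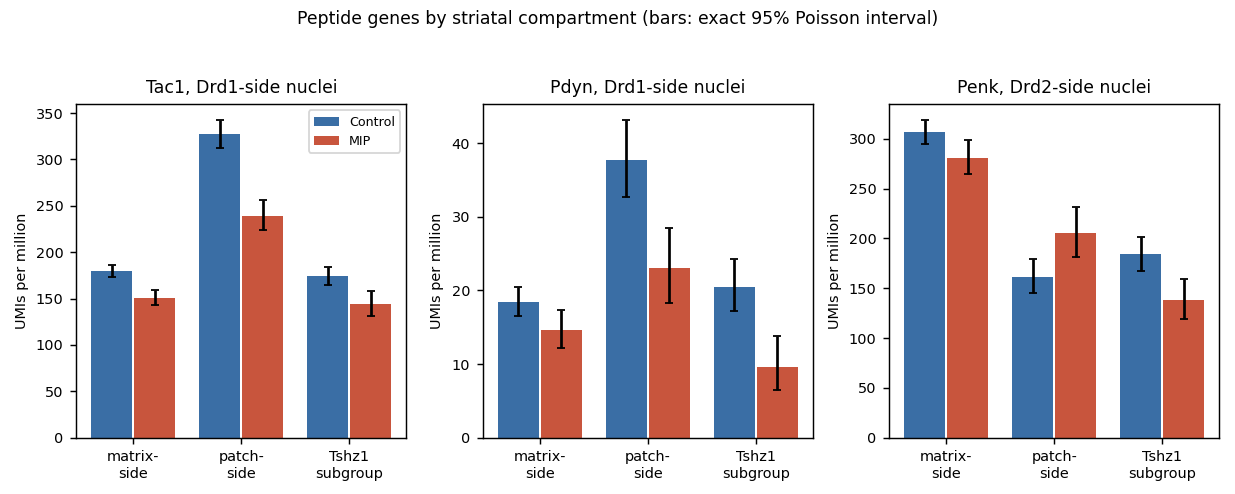
Levels (CPM) of Tac1 and Pdyn in Drd1-side nuclei and of Penk in Drd2-side nuclei, split into matrix-side, patch-side and Tshz1 nuclei, Control in blue and MIP in red, with exact 95% Poisson intervals. The patch-side bars are the tallest for Tac1 and Pdyn, and the matrix-side bars for Penk.

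The design asks how an intestinal injury in the first week of life bears on the SVZ and the tissue next to it. In the Drd1-side nuclei the intervals of 4 of 9 members included 0. Pde10a differed by a log2 ratio of MIP over Control of 0.00 (95% interval -0.02 to 0.02), Drd1 by -0.07 (-0.16 to 0.01), Ppp1r1b by -0.08 (-0.17 to 0.01) and Drd3 by -0.19 (-0.39 to 0.00). Rgs9 was lower, at -0.41 (-0.46 to -0.35), as were the peptide genes, with Tac1 at -0.24 (-0.30 to -0.18), Pdyn at -0.34 (-0.53 to -0.15) and Penk at -0.36 (-0.50 to -0.23). Drd2, whose level there is low, was at -0.81 (-0.99 to -0.64).

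At a ratio of 1.5, 1 of 9 members (Drd2) was lower in MIP in Drd1-side nuclei and 0 of 9 higher. Over all 18576 genes with at least 20 UMIs, 19.6% were at least 1.5-fold lower and 2.62% higher, so that the members' count is below the background share. The median log2 ratio was -0.24 over the members and -0.19 over all genes. Scaling by the trimmed mean of M values (TMM) in place of the class total moves every ratio up by 0.17, and the median-of-ratios factor by 0.21. Under these scalings Drd1 (0.09 and 0.14), Ppp1r1b (0.08 and 0.13) and Pde10a (0.17 and 0.21) lie above 0, Tac1 stands at -0.07 and -0.03, and Rgs9 at -0.24 and -0.20.

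In the Drd2-side nuclei the gene that names the side was slightly higher in MIP. Drd2 had a log2 ratio of 0.15 (0.07 to 0.22) and Pde10a of 0.17 (0.14 to 0.20), while Penk stood at -0.08 (-0.16 to 0.00) and Ppp1r1b at -0.09 (-0.22 to 0.05). Rgs9 was again lower, at -0.30 (-0.38 to -0.22). Drd3, with 115 and 85 UMIs, was at 0.42 (0.00 to 0.83), and the MIP nucleus with the most Drd3 held 15 of its UMIs. By compartment Drd3 was at 1.31 (0.71 to 1.91) in matrix-side and -0.76 (-2.14 to 0.46) in patch-side nuclei. In Tshz1 nuclei it was at -0.43 (-1.18 to 0.27). The 3 genes of the other side were the lowest: Drd1 at -0.76 (-1.21 to -0.33), Tac1 at -0.69 (-0.87 to -0.51) and Pdyn at -0.60 (-1.44 to 0.18), the last from 52 and 19 UMIs.

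These 3 of 9 members were at least 1.5-fold lower and 0 of 9 higher. The share over 16217 genes was 18.9% lower and 3.59% higher. The medians were -0.09 over the members and -0.15 over all genes. With TMM only 1 of the 3 stayed past 1.5-fold, Drd1 at -0.63, with Tac1 at -0.55, and with no doublet removal only Tac1, at -0.72. Over all striatal nuclei together 0 of 9 members were 1.5-fold lower or higher, where 21.8% and 2.30% of 20827 genes were. Rgs9 (-0.43), Pdyn (-0.47) and Tac1 (-0.38) had the lowest ratios there.

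**Figure D4:**
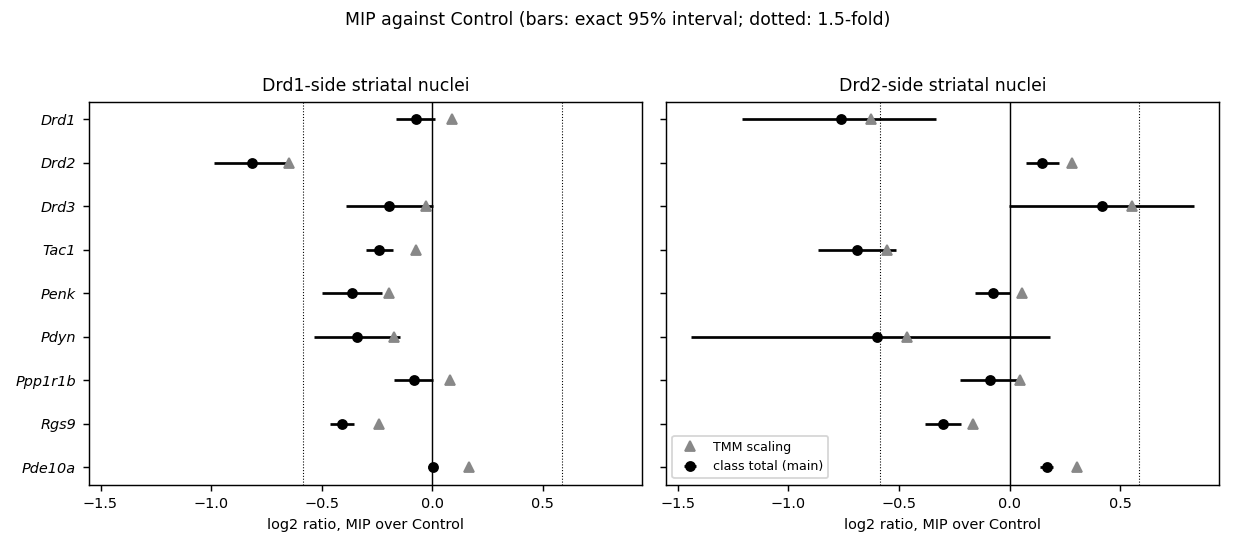
Log2 ratio of MIP over Control for the 9 genes in Drd1-side (left) and Drd2-side (right) nuclei, black points with exact 95% intervals by class total and grey triangles under TMM scaling, dotted lines at 1.5-fold. Rgs9 lies below 0 on both sides under both scalings, and the points past the dotted lines belong to genes of the opposite side.

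The genes past 1.5-fold were thus those of the opposite side. The free RNA described above equalled 10.4% and 11.5% of Drd2 on the Drd1 side and 42.1% and 48.2% of Drd1 on the Drd2 side, in Control and MIP. With the free RNA of each library subtracted, Rgs9 stayed at -0.41 on the Drd1 side and -0.28 on the Drd2 side, Tac1 on its own side moved from -0.24 to -0.17, and Drd2 on the Drd1 side stood at -0.83. Tac1 on the Drd2 side then stood at -1.30, from 0.190 and 0.0622 UMIs per nucleus left after subtraction. Ppp1r1b was higher in MIP after subtraction, with 68.4 CPM in Control and 71.8 in MIP on the Drd1 side. On the Drd2 side the values were 65.4 and 70.5. Several marker lists of other classes also differed between the libraries in Drd1-side nuclei, where all 6 of 6 genes of each of the 12 lists were detected in both libraries. The cholinergic list, whose cells carry Isl1 and Drd2, summed to 22.2 CPM in Control and 9.08 in MIP there. The vascular list summed to 15.0 and 5.91, the ependymal list to 43.1 and 20.2, the Lhx6 list to 303 and 232 and the astroglia list to 431 and 329. The cortical excitatory list was higher in MIP, at 42.3 and 47.8, and the leptomeningeal list stood at 13.9 and 15.3 and the oligodendrocyte precursor list at 493 and 471. The part of these cells or their RNA in the ratios was not tested beyond the following. Without nuclei that had at least 3 markers of another class, Drd2 on the Drd1 side was at -0.82 and Rgs9 at -0.48. In Drd2-side nuclei the differentiating oligodendrocyte list summed to 49.1 and 19.3, the Lhx6 list to 303 and 195 and the oligodendrocyte precursor list to 448 and 480.2, while the cholinergic list, with 5 of 6 genes detected (Slc18a3 at 0 in Control, Gbx2 at 0 in MIP), summed to 8.04 and 9.40. Without nuclei with markers of another class, the 3 genes on the Drd2 side were at -0.84 (Drd1), -0.69 (Tac1) and -0.86 (Pdyn).

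The ratios differed with the depth of the nucleus, and the libraries differ in depth. In Drd1-side nuclei of 5000 to 10000 UMIs (687 in Control, 794 in MIP) Rgs9 was at -0.19 (-0.30 to -0.08), Tac1 at -0.18 (-0.29 to -0.08) and Drd1 at 0.10 (-0.07 to 0.26). At 10000 to 20000 UMIs (1025 and 586) they were at -0.42, -0.53 and -0.31, and above 20000 (425 and 147) at -0.76, -0.63 and -0.40. Pdyn ran from -0.38 to -0.51 and -1.21, and Pde10a from 0.26 to 0.01 and -0.33. The deeper the band, the lower the ratio of these 5 genes among the bands from 5000 UMIs up. Drd3 ran the other way, from -1.12 (-1.64 to -0.60) below 5000 UMIs and -1.19 (-1.52 to -0.87) at 5000 to 10000 to -0.20 (-0.58 to 0.17) and 0.28 (-0.18 to 0.73), so that its pooled ratio of -0.19 does not describe the shallower nuclei. Below 5000 UMIs, with 122 and 201 nuclei, Rgs9 was at 0.00 (-0.43 to 0.44) and Pde10a at 1.004 (0.81 to 1.20). Drd1 was at 1.69 (0.71 to 2.82) there, from 10 and 59 UMIs, so that its pooled ratio of -0.07 does not describe these nuclei. Tac1 stood at -0.14 (-0.51 to 0.23) and Pdyn at 0.63 (-0.78 to 2.26). Drd2 on the Drd1 side had ratios of -2.39, -0.82, -0.19 and -0.69 from the shallowest to the deepest band, so that it was within 1.5-fold in nuclei of 10000 to 20000 UMIs. In Drd2-side nuclei Rgs9 was at -0.19, -0.37 and -0.35 in the bands from 5000 UMIs up and Drd2 at 0.20, 0.05 and 0.27. Penk there ran from 0.26 (0.12 to 0.40) to -0.17 (-0.28 to -0.06) and -0.54 (-0.78 to -0.31). Its pooled ratio of -0.08 thus does not describe these bands. Below 5000 UMIs, with 59 and 83 nuclei, Rgs9 was at 0.79 (-0.04 to 1.70) from 16 and 53 UMIs and Pde10a at 1.84 (1.53 to 2.16).

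**Figure D5:**
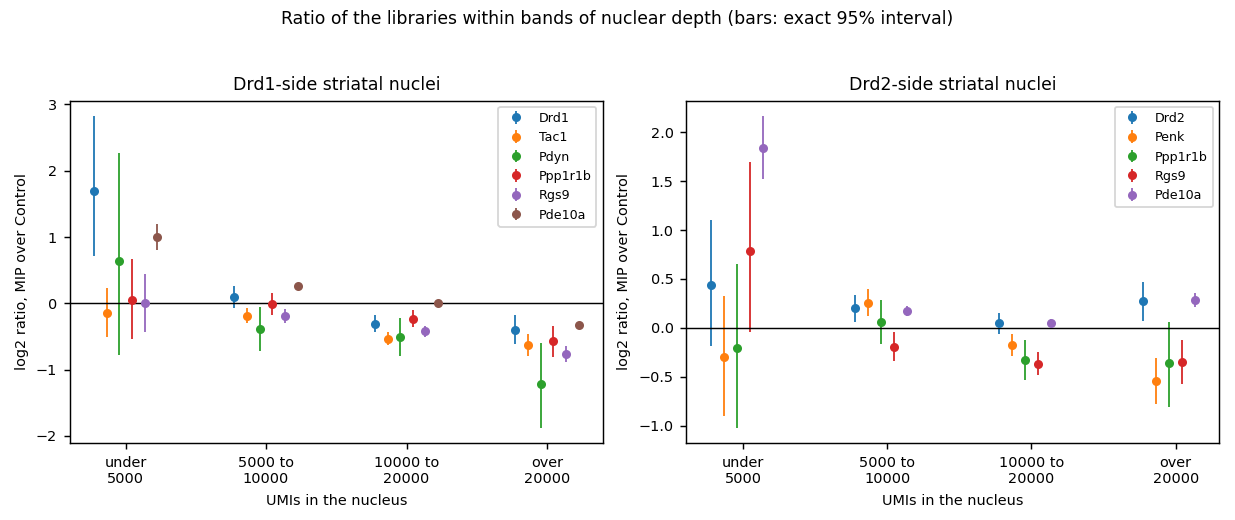
Log2 ratio of MIP over Control within 4 bands of UMIs per nucleus, for 6 genes in Drd1-side nuclei (left) and 5 in Drd2-side nuclei (right), with exact 95% intervals. On the left the points step down from the second band to the last, Rgs9 from -0.19 to -0.76, and the first band, with few nuclei, has wide intervals.

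Detection was compared after thinning each nucleus to 5000 UMIs, and lower shares in MIP were again seen for Rgs9 and Tac1. Drd1 was detected in 35.7% (33.7 to 37.8) of Drd1-side nuclei in Control and 35.9% (33.5 to 38.4) in MIP, Tac1 in 52.9% (50.7 to 55.01) and 48.9% (46.4 to 51.5), and Rgs9 in 61.8% (59.7 to 63.9) and 56.4% (53.8 to 58.9). On the Drd2 side Drd2 was detected in 63.9% (61.0 to 66.8) and 67.7% (64.0 to 71.2), Penk in 56.6% (53.6 to 59.6) and 56.4% (52.6 to 60.2), and Rgs9 in 61.8% (58.8 to 64.7) and 57.1% (53.4 to 60.9). Thinning left out 122 and 201 Drd1-side and 59 and 83 Drd2-side nuclei. Before thinning the Rgs9 shares were 79.4% and 70.9% on the Drd1 side and 77.4% and 73.3% on the Drd2 side. Nuclei of other classes also held such UMIs: with no thinning, Rgs9 had a UMI in 25.5% and 15.6% of astroglia-like nuclei, whose median depths were 5225 and 3910 UMIs. The part of free RNA in these shares was not tested.

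By compartment, the peptide genes of the direct pathway were lower in MIP in each group of Drd1-side nuclei. Pdyn was at -0.71 (-1.10 to -0.34) in patch-side, -0.33 (-0.64 to -0.04) in matrix-side and -1.09 (-1.71 to -0.51) in Tshz1 nuclei, the last from 138 and 30 UMIs. Tac1 was at -0.45 (-0.57 to -0.33), -0.25 (-0.34 to -0.16) and -0.27 (-0.43 to -0.11). Penk in Drd2-side nuclei was higher in patch-side (0.35, 0.11 to 0.58) and lower in matrix-side (-0.13, -0.23 to -0.02) and Tshz1 nuclei (-0.41, -0.66 to -0.17). Whether these compartments differ in their response was not tested, since each ratio compares 2 libraries.

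Of the wider pathway, 104 genes in 6 lists were examined. In Drd1-side nuclei 103 had at least 20 UMIs, 10 were at least 1.5-fold lower in MIP and 4 higher, against the 19.6% and 2.62% of all genes given above. In Drd2-side nuclei 99 did, with 12 lower and 3 higher, against 18.9% and 3.59% of all genes. The median ratio was -0.15 on the Drd1 side and -0.08 on the Drd2 side. The receptor and G protein list held the most lower genes on each side, 6 of 18 on the Drd1 side and 5 of 16 on the Drd2 side. Some of the 6 rest on few UMIs. The intervals of Gpr52 (50 and 19 UMIs, -1.45 to 0.18) and Drd4 (22 and 5, -3.11 to 0.09) included 0. Chrm4 had 57 and 18 UMIs (-1.73 to -0.09). In the cAMP and phosphatase cascade 1 of 25 was lower on each side, Pde7b, and among 12 peptide-processing genes 0 were lower or higher on either side. Pcsk2, a convertase that cuts prohormones, was at 0.23 (0.20 to 0.26) on the Drd1 side and 0.31 (0.27 to 0.35) on the Drd2 side.

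The lower genes ranked first by their intervals were these. Pde7b, a cAMP phosphodiesterase, went from 631 CPM in Control to 379 in MIP in Drd1-side nuclei (log2 -0.74, -0.78 to -0.70) and from 647 to 400.0 in Drd2-side nuclei (-0.69, -0.75 to -0.64). Pde10a, the phosphodiesterase gene among the members, was at 0.00 (-0.02 to 0.02) on the Drd1 side and 0.17 (0.14 to 0.20) on the Drd2 side. Tacr1, the receptor for substance P, went from 17.9 to 6.12 in Drd1-side nuclei (-1.55, -1.85 to -1.26). Tacr1 is known from cholinergic and other interneurons, and without nuclei with 3 markers of another class its ratio was -0.72. Cnr1, the CB1 cannabinoid receptor, went from 40.3 to 21.3 in Drd2-side nuclei (-0.92, -1.18 to -0.67). Rasd2, a striatal small GTPase, was at -0.78 (-1.06 to -0.52) and Oprd1, the delta opioid receptor that enkephalin binds, at -0.80 (-1.23 to -0.38) on the Drd1 side. Gnai1, an inhibitory G protein subunit, was at -0.63 (-0.80 to -0.46) and Rgs2, a regulator of G protein signalling, at -0.59 (-0.82 to -0.37) on the Drd2 side. With nuclei thinned to 2000 UMIs Gnai1 stood at -0.09, Rasd2 at -0.46 and Oprd1 at -0.43, and with TMM Pde7b stood at -0.57 and -0.56, Gnai1 at -0.49 and Rgs2 at -0.46, all within 1.5-fold.

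Genes that cAMP and neuronal activity induce went both ways. Per1, a clock gene that also answers to cAMP, was higher on both sides, at 0.61 (0.41 to 0.82) and 0.65 (0.32 to 0.97), in 362 and 150 UMIs of MIP against 408 and 173 of Control. Nr4a2, an orphan nuclear receptor, was higher on the Drd1 side (1.57, 1.04 to 2.12) from 47 and 81 UMIs. Without nuclei with 3 markers of another class its ratio was 1.02. Fos (44 and 44 UMIs) was at 0.79 (0.15 to 1.42) and Fosb (28 and 27) at 0.73 (-0.08 to 1.55) on that side. Dusp6, a phosphatase of the MAP kinase ERK, was lower on both sides, at -0.73 (-1.12 to -0.34) and -1.26 (-2.09 to -0.51). With nuclei thinned to 2000 UMIs its Drd1-side ratio was -0.43, within 1.5-fold, and with free RNA subtracted its Drd2-side ratio, from 78 and 18 UMIs, turned to 2.501. Egr1 was at -0.02 (-0.22 to 0.19) and Npas4 at -0.33 (-0.62 to -0.05) on the Drd1 side. In all, 4 of 22 such genes were higher and 2 lower on the Drd1 side, and 2 of 21 higher and 3 lower on the Drd2 side. Of all genes, 2.62% were higher and 19.6% lower on the Drd1 side, and 3.59% and 18.9% on the Drd2 side.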

How the data were processed

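Nuclei of 1 Control and 1 MIP library were grouped by their labels. The authors deposited UMI counts for each gene and barcode, not normalized, and per the submitters' processing notes used Cell Ranger 5.0.1 and the build mm10; whether intronic reads were counted is not given in the sources used here. Barcodes numbered 16964 in Control and 12366 in MIP, with 146730970 and 100823376 UMIs. Those with under 500 genes (0 and 204) or over 5% mitochondrial UMIs (114 and 48) were left out. Scrublet (Scanpy 1.11.5) set a threshold that marked 0 barcodes, so the top-scoring 0.8% per 1000 barcodes were removed as doublets (2302 and 1223).

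UMIs were summed per class and library and divided by the class total. Intervals (95%) are exact, from Poisson counts for ratios and Clopper-Pearson for shares; both were tested on simulated data and cover counting error only. No test is possible with 1 library per group. Nuclei outside the gate joined the class, of 12, with the most detected markers, at least 3 and no tie, and are called class-like. Alternatives were TMM (edgeR 4.0.16) and DESeq2 1.42.0 size factors, UMIs per nucleus, other doublet, gate, split, depth and count settings. Positions are GENCODE M21.

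All members are reported. Of the pathway genes, those named first were up to 5 in each direction and side, at a ratio of at least 1.5 and at least 60 UMIs in the higher library, ranked by the interval bound nearest 1; Pcsk2, Fos, Fosb, Egr1 and Npas4 were named after their values were seen. One marker was taken out of the list of other projection neuron genes, and its values and a ranking that needs it are not reported here. The members and lists were chosen with earlier results of these data known.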

Additional observations from a re-analysis of the deposited data

How the results depend on the processing

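No paired analysis was possible because each group is 1 library and the labels carry no replicate numbers. The counts of members at least 1.5-fold lower were 1 (Drd1 side) and 3 (Drd2 side). With UMIs per nucleus 6 members were lower on the Drd1 side. On the Drd2 side 1 was lower with TMM, 1 with median-of-ratios scaling, 1 with no doublet removal, 1 when the opposite pair had to be at 0, and 0 when nuclei were thinned to 2000 UMIs. Of pathway genes, 10 were lower on the Drd1 side; 6 were with TMM, 5 with median-of-ratios scaling, 48 with UMIs per nucleus and 6 after thinning. On the Drd2 side 12 were lower; 4 were with TMM, 4 with median-of-ratios scaling and 25 with UMIs per nucleus. Higher pathway genes numbered 4 on the Drd1 side, but 1 with UMIs per nucleus, 2 without nuclei with 3 markers of another class and 7 after thinning. They numbered 3 on the Drd2 side, but 5 with TMM, 6 with median-of-ratios scaling, 1 without nuclei with other markers, 5 after thinning, 5 with no minimum of UMIs and 1 with a minimum of 60. UMIs per nucleus moves all ratios because MIP nuclei were shallower; the cause of the other differences was not tested. With free RNA subtracted, Dusp6 on the Drd2 side turned to 2.501, and Pdyn there to 1.82 from 0.00118 and 0.00335 UMIs per nucleus left. Ppp1r1b turned from lower to higher in MIP on both sides. Subtraction, leaving out shared barcodes and thinning striatal nuclei to 5000 UMIs were chosen after seeing the data. Rgs9 kept a ratio below 0 under all 13 alternatives computed for it on each side (-0.81 to -0.20 and -0.61 to -0.16), and Tac1 on the Drd1 side did too (-0.64 to -0.03). Pdyn on the Drd2 side rests on 52 and 19 UMIs.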

Other observations

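Genes whose level varied most like that of a member were ranked over 15 classes in both libraries (30 values) by Pearson r of log2 of the level in CPM plus a pseudocount of 1, among 15335 genes; values of a library share its depth and its free RNA, so r is only a description. Nearest to Rgs9 was Wipf3 (r = 0.93), nearest to Pde10a were Actn2 (0.88) and Kcnab1 (0.87), with Rgs9 next (0.86), and nearest to Drd2 was Cacna2d3 (0.87). Tac1 was nearest to Tmem158 (0.86), Drd3 to a predicted gene, Gm48479 (0.83), and Drd1 to Phyhip (0.80). Ppp1r1b was nearest to Srsf9 (0.89) and Pdyn to Amdhd2 (0.79).

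Genes known from the dopamine neurons that project to the striatum (Th, Slc6a3, Slc18a2, Ddc) summed to 21.4 CPM in Drd1-side nuclei of Control and 14.4 in MIP. In Drd2-side nuclei they summed to 28.2 and 17.2, with 4 of 4 genes detected in each. Which cells made these RNAs was not tested.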
